A study of Mus musculus with 12 samples.

Results

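The p53 response to DNA damage was followed in mouse skin through 10 genes, namely Trp53, which encodes p53 itself, and the p53 targets Mdm2, Bax, Ccng1, Eda2r, Phlda3, Zmat3, Gdf15, Sesn2 and Trp53inp1. They were taken by gene symbol as 10 of the 55453 genes in the count table, and all 10 were among the 18311 genes that passed the filter on low counts. The skin came from 12 mice on the C57BL/6 background, the knockouts described as females of 8 to 12 weeks, in a study of how loss of Thy-1, a surface glycoprotein of fibroblasts and T cells, alters skin fibrosis. The 12 mice formed 4 groups of 3: wildtype mice given phosphate-buffered saline (WT PBS), wildtype mice given bleomycin (WT BLM), Thy-1 knockout mice given saline (KO PBS) and Thy-1 knockout mice given bleomycin (KO BLM). Bleomycin was injected under the skin of the back daily at 10 mg/kg for up to 14 days, in 2 spots, and the skin was taken on day 21, per the methods, whereas the series' description gives the treatment as lasting 21 days, so the time from the last dose to sampling is not settled. The knockout is constitutive, so it covers every cell type of the skin, and each library is bulk RNA of 1 mouse, in which more cells of a type and more RNA per cell cannot be told apart.

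Bleomycin cuts DNA strands. Broken DNA activates the kinases ATM and ATR, which stabilise the p53 protein by releasing it from Mdm2, the ubiquitin ligase that marks it for destruction, so that p53 is controlled mostly as a protein and little as an mRNA. Stabilised p53 binds a pair of 10-base half-sites near its target genes and switches on genes for cell cycle arrest (Cdkn1a, which encodes p21), cell death (Bax, Eda2r, Phlda3), feedback (Mdm2, Ccng1), secreted signals (Gdf15) and growth control (Sesn2). Several of these genes, Gdf15 and Sesn2 among them, also answer to ATF4 and CHOP, the transcription factors of the integrated stress response.

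The p53 half-site was searched on both strands in the RefSeq promoter windows of the GRCm38.p6 build, each from 250 bases before to 50 bases after a start site. A window was found for 8 of the 10 genes, with 9 windows in all because Gdf15 has more than one start, and Zmat3 and Trp53inp1 had no entry. An exact half-site stood in 4 of the 9 windows (Trp53, Mdm2, Bax and Ccng1) against 8.36% of 32851 promoters. A pair of half-sites with at most 3 mismatches and a spacer of at most 13 bases stood in 3 of the 9 (Trp53, Bax and Ccng1) against 15.6%. The elements with the fewest mismatches among the 10 genes are shown with that of Cdkn1a, the textbook target that serves as a reference below. The capitals mark the half-sites of the pair with the fewest mismatches in each window.
Ccng1, minus strand, chr11:40755452-40755491: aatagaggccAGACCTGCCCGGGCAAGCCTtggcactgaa
Bax, minus strand, chr7:45467069-45467109: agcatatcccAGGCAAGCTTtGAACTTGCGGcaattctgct
Cdkn1a, plus strand, chr17:29090896-29090947: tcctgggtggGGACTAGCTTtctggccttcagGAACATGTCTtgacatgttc
The Ccng1 element has 1 mismatch and no spacer and begins at position −195 from the start site, and the Bax element has 2 mismatches and begins at −201. The Cdkn1a element ranked first has no mismatch and a spacer of 12 bases, and begins at −73 from the upstream of its 2 RefSeq starts. The last 10 bases printed for Cdkn1a, left in lower case, also match the half-site, with 1 mismatch. They adjoin the second marked half-site and form with it a pair without a spacer, which the ranking by mismatches passed over. A match of letters is not a bound site, and windows without a match carry no information on binding elsewhere.

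The libraries held 26473700 to 38890450 counted reads. Thy1, the gene targeted in the knockouts, was counted in every mouse, at 104, 115 and 149.6 CPM (read counts scaled to a common effective library size) in WT PBS, 231, 349 and 416 in WT BLM, 45.6, 96.9 and 77.4 in KO PBS and 84.7, 128 and 96.4 in KO BLM. Each knockout group lay below the wildtype group of the same treatment (log2 fold change −0.75, adjusted p = 0.224 with PBS, and −1.69, adjusted p = 0.112 with bleomycin, edgeR), neither called, so the counts alone do not show loss of Thy1 in the knockout mice. A pair of libraries, KO PBS mouse 136 and KO BLM mouse 141, stood apart from their groups. The mean log2 CPM of 16 growing hair genes was 10.1 to 10.7 in WT PBS and −0.13 to 4.14 in WT BLM, whereas KO PBS mouse 136 was at 10.8 with its group mates at −0.65 and 2.33, and KO BLM mouse 141 was at 9.68 with its group mates at 5.91 and 6.92. By this measure WT BLM mouse 146 also stood apart, at 4.14 with its group mates at 0.087 and −0.13. Skeletal muscle genes (11 genes, mean log2 CPM) stood at 8.41 to 8.82 in WT PBS, 10.2 to 11.2 in WT BLM, 9.01 in KO PBS mouse 136 and 10.75 to 10.98 in the other KO PBS mice, and 9.42 to 10.1 in KO BLM. Macrophage genes (10 genes) ranged over 4.70 to 5.99, 7.09 to 7.82, 4.77 to 7.19 and 6.65 to 7.02, and T cell genes (5 genes) over 1.27 to 1.29, 2.70 to 3.30, 1.18 to 2.74 and 2.91 to 3.81, with the groups in the same order. None of the genes in these 4 lists was at 0 in every mouse of a group.

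With bleomycin, 5 of the 10 genes rose in WT skin and none fell: Gdf15, Eda2r, Ccng1, Phlda3 and Zmat3, by 1.49-fold to 8.22-fold. A gene is called here when its Benjamini-Hochberg adjusted p over all 18311 genes, from the edgeR quasi-likelihood test, is under 0.05. The same comparison called 34.0% of all genes, 19.8% as higher and 14.1% as lower, which is the background for the 5 of 10. The 10 genes were chosen with earlier results of these data known, so the comparison with this background is a description only. In KO skin 1 of the 10 rose, Gdf15, against 0.306% of all genes. Taken over both genotypes, 5 of the 10 rose and none fell (Gdf15, Eda2r, Phlda3, Bax and Zmat3), against 22.9% of all genes, 14.7% higher and 8.17% lower. The mean over both genotypes was chosen after the data were seen, as the equally weighted mean of the WT and KO log2 fold changes. The median log2 fold change of the 10 genes was 0.55 in WT, 0.28 in KO and 0.58 over both, beside medians of 0.02, −0.01 and 0.00 for all genes.

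**Figure D1:**
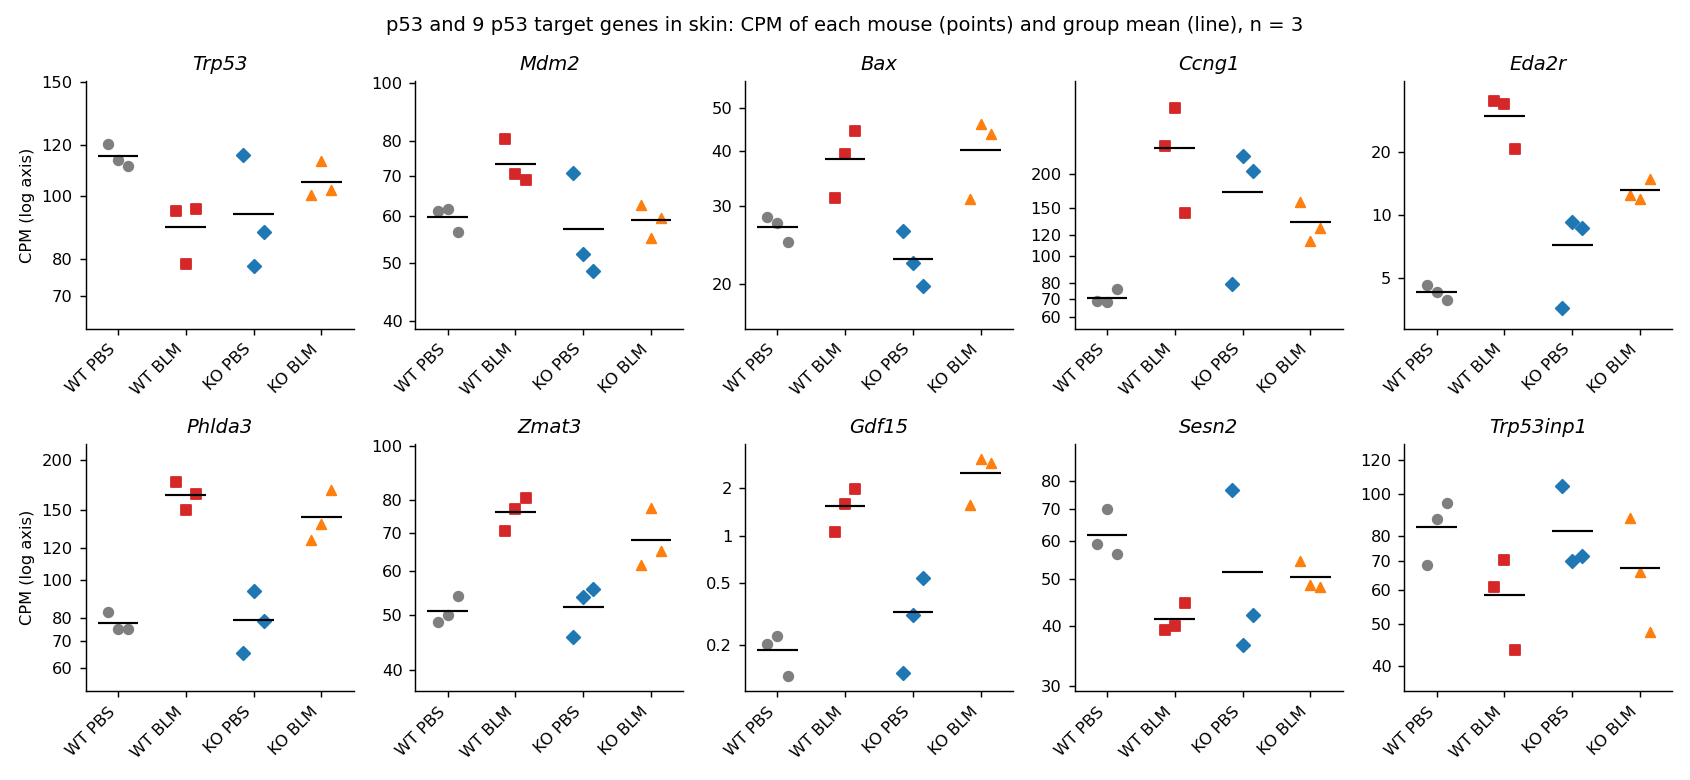
CPM (log axis, a separate scale for each gene) of the 10 genes in each of 12 mice, with points for mice, horizontal lines for group means, and 3 mice in each of the 4 groups of genotype and treatment. Bax, Eda2r, Phlda3, Zmat3 and Gdf15 lie higher in every bleomycin mouse than in every PBS mouse of the same genotype.

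**Figure D2:**
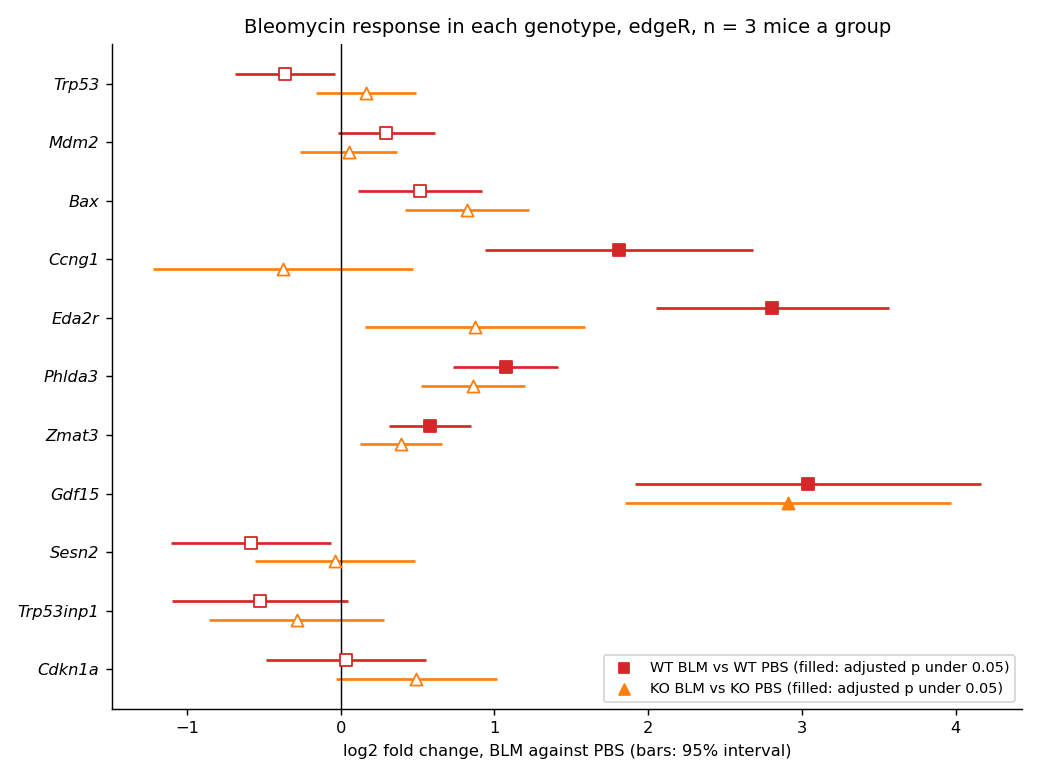
Log2 fold change of BLM against PBS (x axis) for the 10 genes and Cdkn1a in WT (squares) and KO (triangles), with bars for 95% intervals and filled symbols for an adjusted p under 0.05 in edgeR. Gdf15 stands near 3 in both genotypes, while Ccng1 is at 1.81 in WT and −0.37 in KO.

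Values below are CPM in the order WT PBS (mice 159, 160 and 161), WT BLM (145, 146 and 147), KO PBS (136, 137 and 139) and KO BLM (141, 143 and 144). Positions are those of GENCODE M21 on GRCm38.

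Trp53 (chr11:69580359-69591873, plus strand) is the gene of p53 itself. It stood at 120.5, 114 and 112 CPM in WT PBS, 94.9, 78.6 and 95.7 in WT BLM, 116, 78.0 and 88.0 in KO PBS and 100.4, 113 and 102 in KO BLM. Every WT BLM mouse was below every WT PBS mouse, and the KO groups overlapped. The log2 fold change was −0.36 ± 0.15 (SE, n = 3 against 3, adjusted p = 0.0788) in WT and 0.16 ± 0.15 (adjusted p = 0.547) in KO, neither called by edgeR. The p53 mRNA was thus not called higher with bleomycin in either genotype.

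Mdm2 (chr10:117688875-117710758, minus strand), the ligase that destroys p53 and is induced by it, stood at 61.2, 61.5 and 56.3 CPM in WT PBS, 80.5, 70.3 and 68.8 in WT BLM, 70.6, 51.7 and 48.5 in KO PBS and 62.4, 55.1 and 59.6 in KO BLM. All 3 WT BLM mice were above all 3 WT PBS mice, by 1.23-fold (log2 fold change 0.30 ± 0.14 SE, adjusted p = 0.125 in edgeR, n = 3 against 3). The KO groups overlapped, with KO PBS mouse 136 the highest of the 6 (log2 fold change 0.05, 95% interval −0.26 to 0.37).

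Ccng1 (chr11:40748552-40755311, minus strand) encodes cyclin G1, which brings the phosphatase PP2A to Mdm2. It stood at 68.5, 68.1 and 75.8 CPM in WT PBS, 253, 347 and 144 in WT BLM, 79.0, 232 and 205 in KO PBS and 158, 114 and 127 in KO BLM. The WT PBS mice were the lowest of all 12, and in the KO the PBS mice 137 and 139 were above all 3 bleomycin mice. Ccng1 rose 3.50-fold in WT (log2 fold change 1.81 ± 0.39 SE, adjusted p = 0.0104, edgeR, n = 3 against 3). In KO the log2 fold change was −0.37 ± 0.38 (adjusted p = 0.597), and the response in KO minus that in WT was −2.18 ± 0.54 (adjusted p = 0.0702). Over both genotypes it was 0.72 (95% interval 0.12 to 1.32, adjusted p = 0.0755).

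Cdkn1a (chr17:29090976-29100727, plus strand), the gene of the cell cycle inhibitor p21 and the best known p53 target, is no member of the 10 and is given as their reference. It stood at 346, 348 and 342 CPM in WT PBS, 378, 297 and 385 in WT BLM, 414, 211 and 225 in KO PBS and 374, 396 and 425 in KO BLM. The groups overlapped in both genotypes. Cdkn1a differed by 0.03 in log2 (95% interval −0.49 to 0.55, adjusted p = 0.922, edgeR) in WT and 0.49 (−0.03 to 1.01, adjusted p = 0.271) in KO, with n = 3 against 3 in each.

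Among the genes of cell death, Bax (chr7:45461697-45466898, minus strand) encodes the protein that opens the outer membrane of mitochondria. It stood at 28.3, 27.5 and 24.96 CPM in WT PBS, 31.3, 39.5 and 44.5 in WT BLM, 26.4, 22.3 and 19.8 in KO PBS and 31.2, 46.1 and 43.6 in KO BLM. All bleomycin mice were above all PBS mice of both genotypes. The log2 fold change was 0.51 ± 0.18 (SE) in WT (adjusted p = 0.0503) and 0.82 ± 0.18 in KO (adjusted p = 0.0892), each just outside the threshold in edgeR with n = 3 against 3. Over both genotypes Bax rose 1.59-fold (log2 fold change 0.67 ± 0.13, adjusted p = 0.00799).

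Eda2r (chrX:97333840-97377216, minus strand) encodes a receptor of the tumour necrosis factor family that binds the ectodysplasin isoform EDA-A2. It stood at 4.60, 4.24 and 3.92 CPM in WT PBS, 34.9, 33.8 and 20.6 in WT BLM, 3.56, 9.20 and 8.64 in KO PBS and 12.5, 11.9 and 14.9 in KO BLM. The order from high to low was WT BLM, KO BLM and the PBS groups, with no overlap between these 3 levels. Eda2r rose 6.99-fold in WT (log2 fold change 2.81 ± 0.34 SE, adjusted p = 0.00302, edgeR, n = 3 against 3). In KO the log2 fold change was 0.87 ± 0.32 (adjusted p = 0.181), the response in KO minus that in WT was −1.93 ± 0.46 (adjusted p = 0.0702), and over both genotypes it rose 3.58-fold (adjusted p = 0.00169).

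Phlda3 (chr1:135766119-135769136, plus strand) encodes a small pleckstrin-homology protein that keeps the kinase Akt from the membrane. It stood at 83.2, 75.3 and 75.3 CPM in WT PBS, 176, 150.2 and 165 in WT BLM, 65.5, 93.8 and 78.6 in KO PBS and 126, 138 and 169 in KO BLM. Every bleomycin mouse was above every PBS mouse, and within a treatment the genotypes overlapped. Phlda3 rose 2.10-fold in WT (log2 fold change 1.07 ± 0.15 SE, adjusted p = 0.00397, edgeR, n = 3 against 3), and was 1.82-fold higher in KO (0.86 ± 0.15, adjusted p = 0.0539), just outside the threshold. The response in KO minus that in WT was −0.21 (95% interval −0.69 to 0.27).

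Zmat3 (chr3:32334792-32366014, minus strand), a zinc finger protein that binds RNA, stood at 48.7, 50.1 and 54.1 CPM in WT PBS, 70.6, 77.4 and 80.7 in WT BLM, 45.8, 53.9 and 55.7 in KO PBS and 61.4, 77.5 and 65.1 in KO BLM. Again all bleomycin mice were above all PBS mice, by less than for Phlda3. Zmat3 rose 1.49-fold in WT (log2 fold change 0.58 ± 0.12 SE, adjusted p = 0.00928, edgeR, n = 3 against 3) and stood 1.31-fold higher in KO (0.39 ± 0.12, adjusted p = 0.15). Without WT PBS mouse 160 the WT difference was 0.49 (adjusted p = 0.0551) and no longer called.

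Trp53inp1 (chr4:11156431-11174379, plus strand), a stress protein that promotes p53 activity and autophagy, was not among the genes that rose. It stood at 68.5, 87.5 and 95.1 CPM in WT PBS, 60.8, 70.4 and 43.6 in WT BLM, 105, 69.8 and 71.7 in KO PBS and 87.8, 66.0 and 48.0 in KO BLM. The groups overlapped in both genotypes, at log2 fold changes of −0.52 (95% interval −1.10 to 0.05) in WT and −0.29 (−0.86 to 0.28) in KO.

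Gdf15 (chr8:70629393-70632456, minus strand) encodes a secreted factor of the transforming growth factor beta superfamily that acts on appetite through a brainstem receptor. It was the scarcest of the 10, with 6, 7 and 5 reads in WT PBS, 27, 49 and 60 in WT BLM, 4, 11 and 18 in KO PBS and 51, 99 and 82 in KO BLM, so that each PBS value rests on few reads. In CPM these are 0.127 to 0.230, 1.06 to 1.97, 0.133 to 0.536 and 1.56 to 3.07, and the bleomycin mice of both genotypes were above all PBS mice. Gdf15 rose 8.22-fold in WT (log2 fold change 3.04 ± 0.51 SE, adjusted p = 0.00501) and 7.52-fold in KO (2.91 ± 0.48, adjusted p = 0.0454), the one member called in KO (edgeR, n = 3 against 3). The response in KO minus that in WT was −0.13 (95% interval −1.53 to 1.27), an interval too wide to show that the genotypes responded alike. The KO call was lost when any 1 mouse other than KO PBS 136 or KO BLM 141 was left out, with log2 fold changes of 2.55 to 3.44 and adjusted p up to 0.179 over the 12 fits.

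Sesn2 (chr4:132492032-132510501, minus strand) encodes sestrin 2, which restrains the growth kinase complex mTORC1 under stress. It stood at 59.1, 69.9 and 56.5 CPM in WT PBS, 39.1, 39.9 and 44.6 in WT BLM, 76.6, 36.5 and 42.1 in KO PBS and 54.7, 48.6 and 48.1 in KO BLM. Every WT BLM mouse was below every WT PBS mouse, opposite to the genes that rose, and KO PBS mouse 136 alone lay above all KO BLM mice. The log2 fold change was −0.58 ± 0.24 (SE, adjusted p = 0.0753, edgeR, n = 3 against 3) in WT and −0.04 ± 0.23 (adjusted p = 0.949) in KO.

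Counting groups that did not overlap, 9 of the 10 genes separated the WT groups, 7 with bleomycin above and 2 (Trp53 and Sesn2) with bleomycin below, where 57.0% of all genes separated. In KO 5 of the 10 separated, all with bleomycin above (Bax, Eda2r, Phlda3, Zmat3 and Gdf15), where 19.3% of all genes did. An exact permutation test on 3 against 3 mice cannot give a p below 0.10, so these counts stand as a description. Without KO PBS mouse 136, edgeR called 9 of the 10 in WT, 7 higher and 2 lower (45.7% of all genes), and 3 of the 10 in KO, Bax, Phlda3 and Gdf15 (14%). That mouse is not in the WT comparison and enters it only through the filter, the normalisation and the spread estimated over all groups. The median log2 fold change of the 10 in WT was 0.55 with it and 0.54 without it. Without KO BLM mouse 141 the same 3 were called in KO (6.19% of all genes). DESeq2 called 7 of 10 in WT (34.2% of all genes), the 5 named plus Bax and Sesn2, the last as lower, and 3 of 10 in KO, Bax, Phlda3 and Gdf15 (6.14%). For the mean over both genotypes DESeq2 called the same 5 as edgeR (27.3% of all genes).

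Between genotypes, none of the 10 was called by edgeR under PBS (0.0655% of all genes) or under bleomycin (0.0928%). Of all 18311 genes, 3727 under PBS and 3043 under bleomycin had an unadjusted p under 0.05 in edgeR, as did 2 of the 10 in each. Under PBS these were Ccng1 (log2 fold change 1.28 ± 0.39 SE, adjusted p = 0.204) and Eda2r (0.75 ± 0.32, adjusted p = 0.24), both with higher means in KO. Under bleomycin they were Ccng1 (−0.90 ± 0.38, adjusted p = 0.287) and Eda2r (−1.19 ± 0.32, adjusted p = 0.212), both with lower means in KO. Ccng1 was the 1 gene of the 10 that separated the PBS groups, where 18.9% of all genes did. Under bleomycin Trp53 and Sesn2 lay higher and Mdm2 and Eda2r lower in all KO mice, where 27.5% of all genes separated. DESeq2 called 1 of the 10 in each, Ccng1 under PBS (adjusted p = 0.0408, 3.83% of all genes) and Eda2r under bleomycin (adjusted p = 0.0246, 3.34%).

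The difference of the bleomycin responses, KO minus WT, was called by edgeR for none of the 10 and for 0% of all genes. Ccng1, Eda2r and Trp53 had an unadjusted p under 0.05 in edgeR, as did 5687 of all 18311 genes. DESeq2 called Ccng1 (−2.19, adjusted p = 0.00352) and Eda2r (−1.94, adjusted p = 0.00255), against 18.5% of all genes. The calls in these contrasts moved when KO PBS mouse 136 was left out. KO BLM against WT BLM holds no KO PBS mouse. There mouse 136 enters only through the filter, the normalisation and the spread estimated over all groups. The median log2 fold change of the 10 under bleomycin was −0.048 with it and −0.045 without it. Without it, 4 of the 10 were called under PBS (Ccng1 and Eda2r higher, Trp53 and Sesn2 lower in KO, 36.7% of all genes), 1 under bleomycin (Eda2r, 6.89%) and 4 for the difference of the responses (Ccng1 −2.52, Eda2r −2.25, Trp53 0.71 and Sesn2 0.95, 39.9%). In all 4 calls of that difference the KO response compares 3 KO BLM mice with KO PBS mice 137 and 139, which had the lowest growing hair and the highest muscle levels among the PBS mice. The WT response in that difference rests on the WT groups, which separated in both levels without overlap.

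Across the mice Ccng1 rose with the level of the skeletal muscle genes, while the order of the Eda2r levels departed from theirs in the KO mice given below. No correlation with the muscle list was computed for either gene. Over 12 mice, the 3 genes whose standardised log2 CPM lay nearest to that of Ccng1 (by root mean square difference among 13837 genes) were Cmya5 (0.172), Asb15 (0.172) and Sptb (0.179). Those nearest to Eda2r were Map1a (0.153), Trim63 (0.161) and Ip6k3 (0.179), where Trim63 encodes the muscle ubiquitin ligase MuRF1. KO PBS mice 137 and 139 had muscle levels of 10.98 and 10.75, within the WT BLM range of 10.2 to 11.2. Their Ccng1 stood at 232 and 205 CPM, within the WT BLM range of 144 to 347. The same mice had Eda2r at 9.20 and 8.64 CPM, above WT PBS and below the WT BLM range of 20.6 to 34.9. KO BLM mice 143 and 141 had lower muscle levels (9.42 and 9.87) than these KO PBS mice and higher Eda2r (11.9 and 12.5 CPM). Phlda3 (93.8 and 78.6), Bax (22.3 and 19.8) and Zmat3 (53.9 and 55.7) stood in these mice below every bleomycin mouse. Gdf15 stood there at 0.314 and 0.536 CPM, also below every bleomycin mouse, and its nearest genes were Chga (0.244), Pdpn (0.254) and Ltb (0.272), with Ltb encoding the lymphocyte cytokine lymphotoxin beta. KO PBS mice 137 and 139 also differed from KO PBS mouse 136 in other lists (mean log2 CPM). Growing hair was −0.65 and 2.33 against 10.8, macrophage 7.19 and 6.59 against 4.77, and T cell 2.63 and 2.74 against 1.18. These levels differed together in the same mice, and the part of each in the members' values was not tested.

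**Figure D3:**
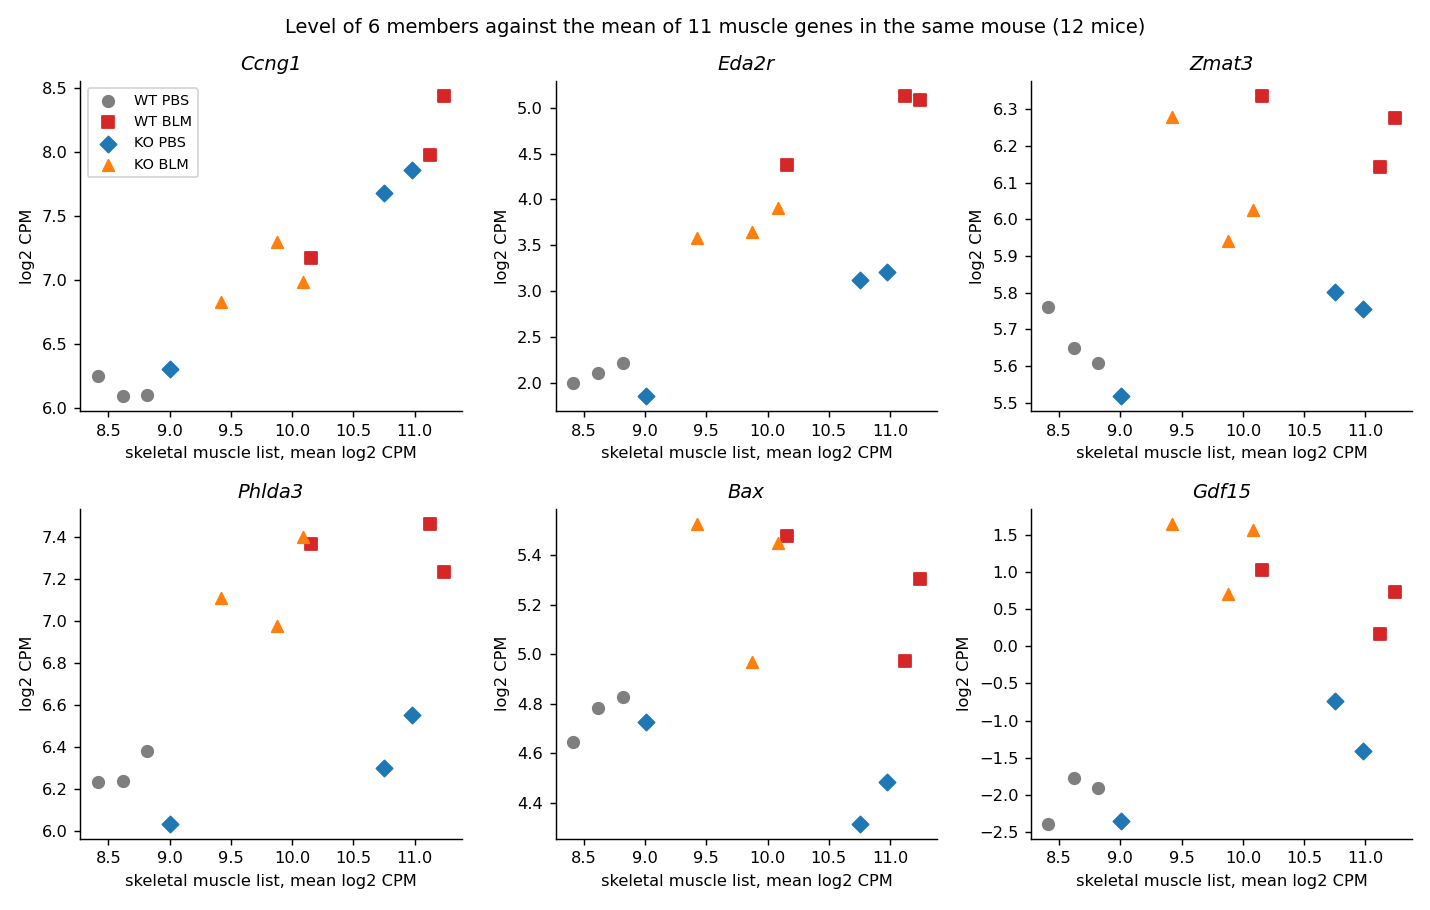
Log2 CPM of 6 of the genes (y axes) against the mean log2 CPM of 11 skeletal muscle genes (x axes), 1 point for each of 12 mice, with symbols for the 4 groups. Ccng1 rises with the muscle level across the groups, whereas Phlda3, Bax, Zmat3 and Gdf15 of KO PBS mice at 10.75 and 10.98 lie below the bleomycin mice.

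The model was also fitted with the muscle level or the growing hair level of each mouse as a covariate, the former chosen after the data were seen. With the muscle level, the mean response over both genotypes went from 0.72 to 0.05 for Ccng1 and from 1.84 to 1.27 for Eda2r, which remained called (adjusted p = 0.00337). Bax (0.83, adjusted p = 0.0177), Phlda3 (0.82, adjusted p = 0.0107), Zmat3 (0.46, adjusted p = 0.0417) and Gdf15 (2.80, adjusted p = 0.0113) were called as well, so that the same 5 genes were called, against 5.61% of all genes. With the growing hair level the same 5 were called at 0.42 (Zmat3) to 2.69 (Gdf15), against 12.8% of all genes. In WT alone the median log2 fold change of the 10 was 0.62 with growing hair and 0.56 with muscle, beside 0.55 without a covariate, while that of Ccng1 was −0.03 with muscle. Neither covariate left a member called there, with 0.104% of all genes called beside growing hair and 0% beside muscle, and both levels separated the WT groups without overlap, so that they and bleomycin cannot be told apart. In KO, where the levels overlapped between treatments, 5 of the 10 were called with growing hair (Bax 0.79, Eda2r 1.26, Phlda3 1.02, Zmat3 0.47 and Gdf15 3.36, 8.65% of all genes) and 3 with muscle (Eda2r 1.30, Phlda3 0.95 and Gdf15 3.08, 0.584%). The macrophage and T cell lists were higher in all WT BLM mice than in any WT PBS mouse, and the T cell list was higher in all KO BLM mice than in any KO PBS mouse, and their part in these values was not tested. The stress epidermis genes (7 genes, mean log2 CPM) stood at 2.39 to 2.89 in WT PBS, 5.92 to 8.71 in WT BLM, 1.38 to 3.96 in KO PBS and 2.89 to 8.61 in KO BLM. Over both genotypes 5 of the 7 were called higher, against 14.7% of all genes. The epidermis genes (7 genes) stood at 9.50 to 9.78, 9.998 to 11.4, 9.52 to 10.3 and 10.2 to 11.97, and the fibroblast genes (9 genes) at 8.20 to 8.56, 8.24 to 10.1, 8.15 to 9.59 and 8.52 to 9.40, with the groups in the same order. In WT with bleomycin 5 of the 9 fibroblast genes rose, against 19.8% of all genes, and the part of these lists in the members' values was not tested either.

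**Figure D4:**
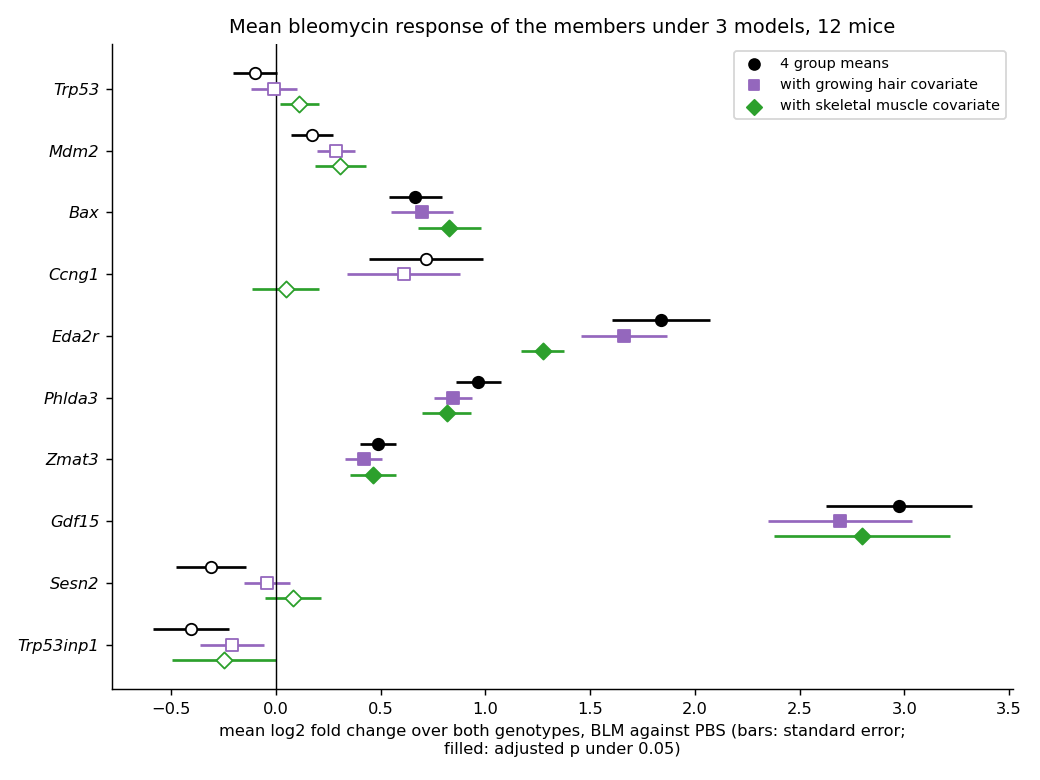
Mean log2 fold change of BLM against PBS over both genotypes (x axis) for the 10 genes under 3 models of the same 12 mice, with the 4 group means alone (circles), with a growing hair covariate (squares) and with a skeletal muscle covariate (diamonds). Bars are standard errors and filled symbols have an adjusted p under 0.05: Bax, Eda2r, Phlda3, Zmat3 and Gdf15 are filled in all 3, and Ccng1 moves from 0.72 to 0.05 with the muscle covariate.

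Per kilobase of exon, Phlda3 was the most abundant of the 10 in every group, at 49.97 ± 2.93 CPM per kb (SD, n = 3) in WT PBS and 105 ± 8.35 in WT BLM. Trp53 (28.5 ± 1.15) and Ccng1 (20.2 ± 1.23) followed in WT PBS, while in WT BLM Ccng1 was next to Phlda3 at 70.6 ± 28.9. Sesn2 (17.8 ± 2.05) and Bax (17.1 ± 1.11) differed by less than their SDs in WT PBS, and Trp53inp1 (12.9 ± 2.11) and Mdm2 (11.7 ± 0.57) by less than the SD of Trp53inp1. Zmat3 (4.46 ± 0.25), Eda2r (0.722 ± 0.06) and Gdf15 (0.101 ± 0.03) were the lowest in every group. The genes with the largest fold changes, Gdf15 and Eda2r, were thus the least abundant.

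Of 37 other p53 targets, 9 rose and 2 fell in WT with bleomycin, a count of rises near the background of 19.8% of all genes higher (14.1% lower), with a list median of −0.02. The largest rises were those of Ak1 (log2 fold change 2.32, adjusted p = 0.00437), an adenylate kinase abundant in muscle, Pmaip1 (1.46, adjusted p = 0.00916), which encodes the death protein Noxa, and Fas (1.42, adjusted p = 0.0066), the death receptor. Pank1, an enzyme of coenzyme A synthesis (−0.996, adjusted p = 0.00638), and Pcna, the sliding clamp of DNA replication (−0.55, adjusted p = 0.00909), were the 2 that fell. Pmaip1 stood at 7.34, 8.39 and 8.10 CPM in WT PBS, 22.5, 15.2 and 28.1 in WT BLM, 9.44, 5.74 and 6.56 in KO PBS and 12.5, 21.9 and 25.4 in KO BLM. Its bleomycin mice were above all PBS mice in both genotypes, with the same log2 fold change of 1.46 in KO (adjusted p = 0.0738). Ak1 and Fas did not separate the KO groups. None of the 37 was called by edgeR in KO, and DESeq2 called 2 higher and 1 lower (6.14% of all genes). At an unadjusted p under 0.05 in edgeR 6 were higher and 3 lower in KO, where 3665 of all 18311 genes passed. Over both genotypes 9 of the 37 rose and 2 fell, against 14.7% of all genes higher and 8.17% lower. The WT count of rises was 4 without WT PBS mouse 160 and 11 without KO PBS mouse 136.

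Of 18 regulators of p53, 1 rose and 4 fell in WT (median −0.34), against 19.8% of all genes higher and 14.1% lower. The one that rose, Cdkn2a, encodes the p53 activator ARF, which holds Mdm2 back, and the cell cycle inhibitor p16 from a shared locus, which gene counts do not separate. Its CPM was 0.135, 0.0658 and 0.204 in WT PBS, 10.1, 10.3 and 16.3 in WT BLM, 0.133, 0.314 and 0.238 in KO PBS and 2.45, 7.01 and 11.3 in KO BLM, where the PBS values rest on 2 to 11 reads. All bleomycin mice were above all PBS mice. Cdkn2a rose in WT (log2 fold change 6.43 ± 0.66 SE, adjusted p = 0.00215, edgeR, n = 3 against 3) and in KO (4.88 ± 0.61, adjusted p = 0.0305), and its response in KO minus that in WT was −1.55 (adjusted p = 0.222). It was the one gene of the 5 pathway lists called in KO. The 4 that fell in WT were Ppp1r13b (−1.30, adjusted p = 0.0228), Sirt1 (−0.76, adjusted p = 0.0263), Trp53bp2 (−0.48, adjusted p = 0.0339) and Crebbp (−0.41, adjusted p = 0.0483). Ppp1r13b and Trp53bp2 encode the ASPP proteins, which direct p53 to death genes, and Sirt1 and Crebbp remove and add acetyl groups on p53. Over both genotypes 1 of the 18 rose and 6 fell, against 14.7% of all genes higher and 8.17% lower.

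Of 21 genes of DNA break sensing and repair, none rose and 6 fell in WT (median −0.31), with 14.1% of all genes lower and 19.8% higher as the background. Among those that fell were H2afx, the histone variant phosphorylated at breaks (−1.45, adjusted p = 0.0179), and the checkpoint kinase gene Chek1 (−0.96, adjusted p = 0.0164). H2afx stood at 67.4, 58.7 and 56.3 CPM in WT PBS, 17.9, 22.3 and 26.6 in WT BLM, 53.2, 20.2 and 16.1 in KO PBS and 52.1, 51.3 and 46.1 in KO BLM. KO PBS mice 137 and 139 stood with the WT BLM mice, and KO PBS mouse 136 near the WT PBS mice. None of the 21 was called in KO by edgeR or by DESeq2 (6.14% of all genes). At an unadjusted p under 0.05 in edgeR 2 were higher and 1 lower, where 3665 of all 18311 genes passed. Over both genotypes none rose and 2 fell, against 14.7% of all genes higher and 8.17% lower.

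Of 15 targets of ATF4 and CHOP, the other factors that drive Gdf15 and Sesn2, 4 rose and 2 fell in WT (median −0.13), both near the shares over all genes (19.8% higher, 14.1% lower). Vldlr, a lipoprotein receptor (1.77, adjusted p = 0.00822), Trib3, a pseudokinase (1.13, adjusted p = 0.0321), and Eif4ebp1, a brake on translation (0.57, adjusted p = 0.0208), rose most, ahead of Ddit3, which encodes CHOP itself (0.56, adjusted p = 0.0441). Slc3a2, the heavy chain of amino acid transporters (−1.27, adjusted p = 0.0159), and Phgdh, the first enzyme of serine synthesis (−0.65, adjusted p = 0.0108), fell. None of the 15 was called in KO by edgeR, and DESeq2 called 1 higher (6.14% of all genes). At an unadjusted p under 0.05 in edgeR 5 were higher in KO, where 3665 of all 18311 genes passed. Over both genotypes 4 rose and none fell, against 14.7% of all genes higher and 8.17% lower.

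Of 18 cell cycle genes that p53 represses through p21, 14 fell in WT and none rose, where 14.1% of all genes fell, with a median of −1.29 against 0.02 for all genes. Mybl2 (−1.99, adjusted p = 0.0262), Mki67 (−1.90, adjusted p = 0.0172) and Cdc25c (−1.70, adjusted p = 0.0254) fell most. Mki67, the proliferation marker Ki-67, stood at 333, 305 and 359 CPM in WT PBS, 72.9, 112 and 83.6 in WT BLM, 266, 83.4 and 62.3 in KO PBS and 249.5, 163 and 132 in KO BLM. Its high values, in WT PBS, KO PBS mouse 136 and KO BLM mouse 141, are in the mice with the highest growing hair levels, and the part of hair growth in these values was not tested. In KO the median was 0.60 and none was called by edgeR or DESeq2. At an unadjusted p under 0.05 in edgeR 5 were higher, where 3665 of all 18311 genes passed. In KO PBS against WT PBS the median was −1.18. There 16 of the 18 lay lower in every KO mouse (18.9% of all genes separated), edgeR called none and DESeq2 called 5 (3.83%). Over both genotypes edgeR called none (median −0.29). For the response in KO minus that in WT edgeR called none and DESeq2 called 17, all higher (18.5%). The WT count was 2 without WT BLM mouse 145, 17 without KO PBS mouse 136 and 0 with the growing hair or the muscle covariate.

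**Figure D5:**
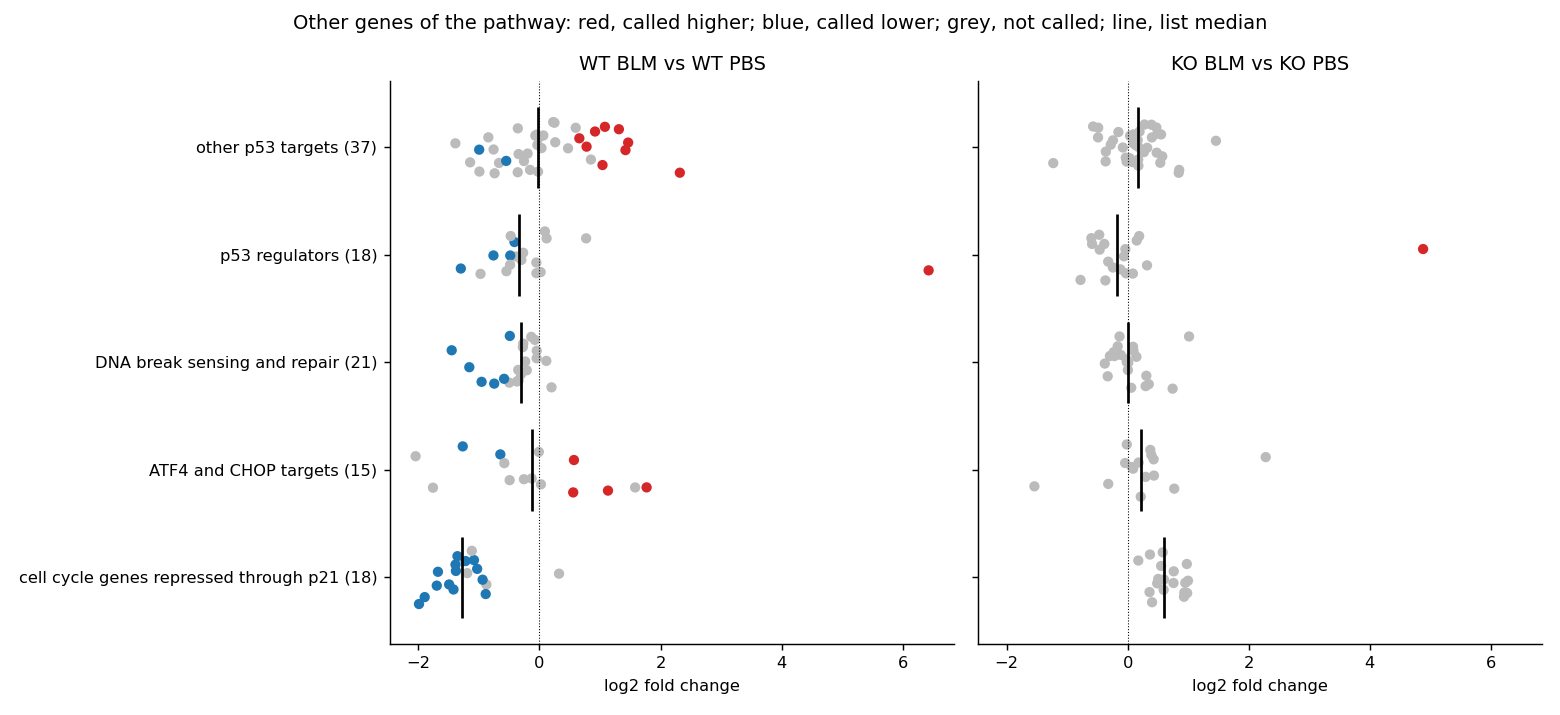
Log2 fold change of BLM against PBS (x axes) in WT (left) and KO (right) for each gene of 5 lists, with the number of genes in brackets and a vertical line at each list's median. Red points are called higher, blue points lower and grey points not called in edgeR: in WT the cell cycle list has 14 blue points and a median of −1.29, and in KO the one colored point is Cdkn2a.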

How the data were processed

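RNA of back skin from 12 mice was sequenced from stranded mRNA libraries. The authors deposited 1 table of raw counts per gene, the unit used here, mapped to GRCm38.p6 per the labels. The aligner and the counting tool are not given in the sources used here. No column was left out.

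Counts were filtered with filterByExpr (10 counts, 15 in total), normalised by TMM and fitted with edgeR 4.0.16 (R 4.3.3) as 4 group means over all 12 mice, with the quasi-likelihood test, Benjamini-Hochberg adjustment over 18311 genes and a threshold of 0.05. The biological coefficient of variation was 34.9%. Log2 CPM used a prior count of 2. The 5 planned contrasts are those of the text, and the mean of the responses and the muscle covariate were added later. The fit was tested on simulated counts. DESeq2 1.42.0 served as an alternative.

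The members and gene lists were chosen with earlier results of these data known. Named in the text are all 10 members and Cdkn1a, from each list the 3 largest rises and falls among genes called in WT (mean log2 CPM of 1 or more) and every gene called in another planned contrast, and the 3 genes nearest to Ccng1, Eda2r and Gdf15. A gene that this rule picks is not reported here. Ddit3 and Crebbp are named because they complete counts of 5 or fewer. Sequences are from RefSeq, with motifs matched by letters. Promoters and gene lengths (merged exons of GENCODE M21) were joined by symbol.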

Additional observations from a re-analysis of the deposited data

How the results depend on the processing

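No paired analysis was possible because no 2 mice carry one number. The count of the 10 members called was recomputed under 9 alternatives and with each of the 12 mice left out. In WT it was 5, with 8 called (6 higher, 2 lower) when the model held only the groups compared, 9 (7 higher, 2 lower) without KO PBS replicate 136 and KO BLM replicate 141 together, 0 with the growing hair covariate and 0 with the skeletal muscle covariate, and 4 to 9 with 1 mouse left out. In KO it was 1, with 3 called by DESeq2, 0 after upper-quartile normalization, 0 with only the groups compared, 4 without those 2 mice together, 5 with the growing hair and 3 with the muscle covariate, and 0 to 3 with 1 mouse left out. For KO against WT it was 0, with 1 under PBS and 1 under bleomycin by DESeq2, and without the 2 mice 4 under PBS and 1 under bleomycin, and 0 to 4 and 0 to 1 with 1 mouse left out. For the difference of the responses it was 0, with 2 by DESeq2, 4 without the 2 mice and 0 to 4 with 1 mouse left out. The highest of these counts came without KO PBS replicate 136, the 3 in KO also without KO BLM replicate 141. The 4 in WT came without WT PBS replicate 160, and the 0 in KO without any 1 of the 10 mice other than those 2. Calls over all genes moved with these settings: in WT 6222 became 7803 with only the groups compared and 9159 without the 2 mice, and in KO 56 became 1212 by DESeq2 and 4164 without the 2 mice. For the mean response it stayed at 5 or 6, and Bax, Eda2r, Phlda3, Zmat3 and Gdf15 were called in all of its fits. Models with only the groups compared hold no difference or mean of responses, and in KO PBS against WT PBS such a model left Gdf15 out by the filter.

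The sign of a member's log2 fold change turned in 64 fits, with no adjusted p under 0.05 after the turn. With the growing hair covariate it turned in WT for Sesn2 (0.14) and Trp53inp1 (0.096), in KO for Mdm2 (−0.056), in KO PBS against WT PBS for Mdm2 (0.14), Phlda3 (−0.26), Zmat3 (−0.13), Sesn2 (0.16) and Trp53inp1 (0.39), in KO BLM against WT BLM for Phlda3 (0.087), Sesn2 (−0.20) and Trp53inp1 (−0.22), and in the difference of the responses for Phlda3 (0.35), Zmat3 (0.11), Gdf15 (1.34), Sesn2 (−0.36) and Trp53inp1 (−0.61). With the muscle covariate it turned in WT for Trp53 (0.15), Ccng1 (−0.032) and Sesn2 (0.30), in KO for Ccng1 (0.13), in KO PBS against WT PBS for Trp53 (0.058), Mdm2 (0.15), Bax (0.054), Ccng1 (−0.16), Eda2r (−0.49), Phlda3 (−0.28), Zmat3 (−0.025), Sesn2 (0.32) and Trp53inp1 (0.21), in KO BLM against WT BLM for Trp53 (−0.0098), Bax (−0.12) and Sesn2 (−0.12), in the difference of the responses for Trp53 (−0.068), Bax (−0.17), Ccng1 (0.16), Eda2r (0.050), Phlda3 (0.27), Gdf15 (0.55), Sesn2 (−0.44) and Trp53inp1 (−0.18), and in the mean response for Trp53 (0.11) and Sesn2 (0.081). Without the 2 mice it turned for Sesn2 in KO (0.30), Trp53inp1 in KO BLM against WT BLM (−0.029) and Trp53 in the mean response (0.0046), and after upper-quartile normalization for Trp53inp1 in KO PBS against WT PBS (0.015). With 1 mouse left out, values on both sides of 0 came in KO for Sesn2 (−0.23 to 0.36) and Mdm2 (−0.052 to 0.24), in KO PBS against WT PBS for Phlda3 (−0.11 to 0.14), Zmat3 (−0.032 to 0.11), Trp53inp1 (−0.24 to 0.11) and Mdm2 (−0.25 to 0.036), in KO BLM against WT BLM for Bax (−0.058 to 0.26) and in the difference of the responses for Gdf15 (−0.49 to 0.41). The cause of these turns was not tested.

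With 3 mice a group the intervals are wide, and the 4 to 18 reads of Gdf15 in the PBS mice limit the precision of its fold change. In WT the marker levels separate the groups, so a covariate leaves little of the bleomycin contrast to estimate there. Dosing ended by 14 days at the latest and skin was taken on day 21 according to the methods, while the series' description gives 21 days of treatment, so the time from the last dose is not settled, and earlier changes were not measured.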
